A study of Mus musculus with 6 samples.

Results

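Glucose enters a cell through carriers, is phosphorylated by hexokinases and is committed to glycolysis by phosphofructokinases. This account follows the 10 mouse genes Slc2a1, Slc2a3, Hk1, Hk2, Pfkl, Pfkm, Pfkp, Pfkfb2, Pfkfb3 and Pfkfb4, which cover those entry steps, out of 32285 genes with a deposited value. They were taken by gene name, not by any measured value, and all 10 had a mean of at least 10 normalised reads, so all were tested. RNA was sequenced from radial glial progenitors, the dividing stem cells of the developing cortex, sorted from cultured E10.5 neocortex of wild-type mice. The GSK group held 3 libraries of cells treated with the lactate dehydrogenase inhibitor GSK2837808A, collected after about 24 h, and the DMSO group held 3 libraries of cells given the same volume of the solvent DMSO. Both groups shared everything else named in the labels: dissociation, plating of 100000 cells per well, a wait of about 2 h before treatment, and a sort of about 1000 living cells positive for CD133, the surface protein encoded by Prom1. The labelled inhibitor concentration of 100 mM is very high for a culture medium and could not be checked, so the dose is uncertain. Nothing in the labels ties the replicates to separate cultures or litters, so every p-value here reflects the spread among 6 samples, which may be technical.

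The carriers GLUT1 and GLUT3, encoded by Slc2a1 and Slc2a3, move glucose across the plasma membrane down its gradient, and GLUT3 is known as the carrier of neurons. Hexokinases trap glucose as glucose 6-phosphate. HK1 is the widely expressed form of the brain, and HK2 is an inducible form found in muscle, embryonic and tumour cells. Phosphofructokinase is built from liver (Pfkl), muscle (Pfkm) and platelet (Pfkp) type subunits. The bifunctional enzymes encoded by the Pfkfb genes make and break down fructose 2,6-bisphosphate, a strong activator of phosphofructokinase, and the PFKFB3 protein works almost wholly as the kinase. Hk2, Pfkfb3, Pfkfb4 and Slc2a1 are known as genes that respond to hypoxia-inducible factors.

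Depth did not set the groups apart, with 7187089 to 10224348 recovered reads in GSK libraries and 7837721 to 10051625 in DMSO libraries. The gene with the fewest reads among the 10, Slc2a3, had 47 to 80 reads per GSK library and 42 to 68 per DMSO library. Among the listed radial glial markers Vim was the most abundant, at 9486 ± 1236 normalised reads in GSK and 10127 ± 122 in DMSO libraries (SD, n = 3 each). Vim alone does not identify the labelled cell type, and marker lists differed between the groups. Of 10 radial glial markers 9 were lower in GSK libraries and none higher. Their summed levels were 11549 to 14173 normalised reads in GSK and 22264 to 22754 in DMSO libraries. Vim, the marker that was not called, made up most of each GSK sum, at 8061 to 10278 in GSK and 10011 to 10255 in DMSO libraries. These sums therefore understate the fall of the other markers, and the median log2 fold change of the 10 was -1.39. Prom1, the gene of the sort marker CD133, was among those that fell. It had 591 ± 96.3 normalised reads in GSK and 1183 ± 72.2 in DMSO libraries, a log2 fold change of -1.01 (limma adjusted p = 7.61e-06). Of 11 erythroid markers 10 were tested and 9 were higher, with sums of 187064 to 277587 in GSK and 2466 to 21055 in DMSO libraries, of which the embryonic globin Hbb-y held the most. Summed microglia and macrophage markers ran from 616 to 1488 in GSK and from 69.6 to 348 in DMSO libraries, with 5 of 9 higher and Csf1r the most abundant. Of 8 neuron markers 3 were higher and 1 lower (sums 20502 to 24891 in GSK, 6921 to 14095 in DMSO, led by Tubb3), and of 6 intermediate progenitor markers 5 were higher and none lower (3088 to 4113 in GSK, 1990 to 2072 in DMSO, led by Mfap4). Of 7 mesenchyme and pericyte markers 6 were tested and 2 were lower (16170 to 25391 in GSK, 26497 to 33420 in DMSO, led by Col3a1). Endothelial markers were low in both groups, with 4 of 9 tested, none called and sums of 64.7 to 94.4 in GSK and 66.9 to 92.9 in DMSO libraries. Kdr led that list, and Cldn5 was at 0 in GSK replicate 3 and DMSO replicates 2 and 3. No listed marker was at 0 in every library. In bulk RNA, fewer cells of a type and less RNA per cell cannot be told apart, and the part of these shifts in the results that follow was not tested.

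Within 2 of the 4 families, members moved in opposite directions. Hk2 and Pfkfb3 fell in GSK libraries, and Hk1, Pfkp and Pfkfb4 rose. Slc2a1, Slc2a3, Pfkl, Pfkm and Pfkfb2 did not pass the test. The test was limma on log2(value + 1), adjusted over all 15073 genes tested with a threshold of 0.05. In that fit 36.1% of all genes tested were called, 17.0% of the genes tested being higher in GSK and 19.1% lower, so 3 higher and 2 lower among 10 genes are not far from the background. Only 1 of the 10 was called higher without DMSO replicate 1, without DMSO replicate 3 or with equal library totals, and 2 were called lower in each of these fits. The 3 GSK values lay wholly above the 3 DMSO values for 5 of the 10 genes, against 22.8% of all genes tested, and wholly below for 2, against 24.4%. The median log2 fold change of the 10 genes was 0.31, beside 0.01 for all genes tested.

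**Figure D1:**
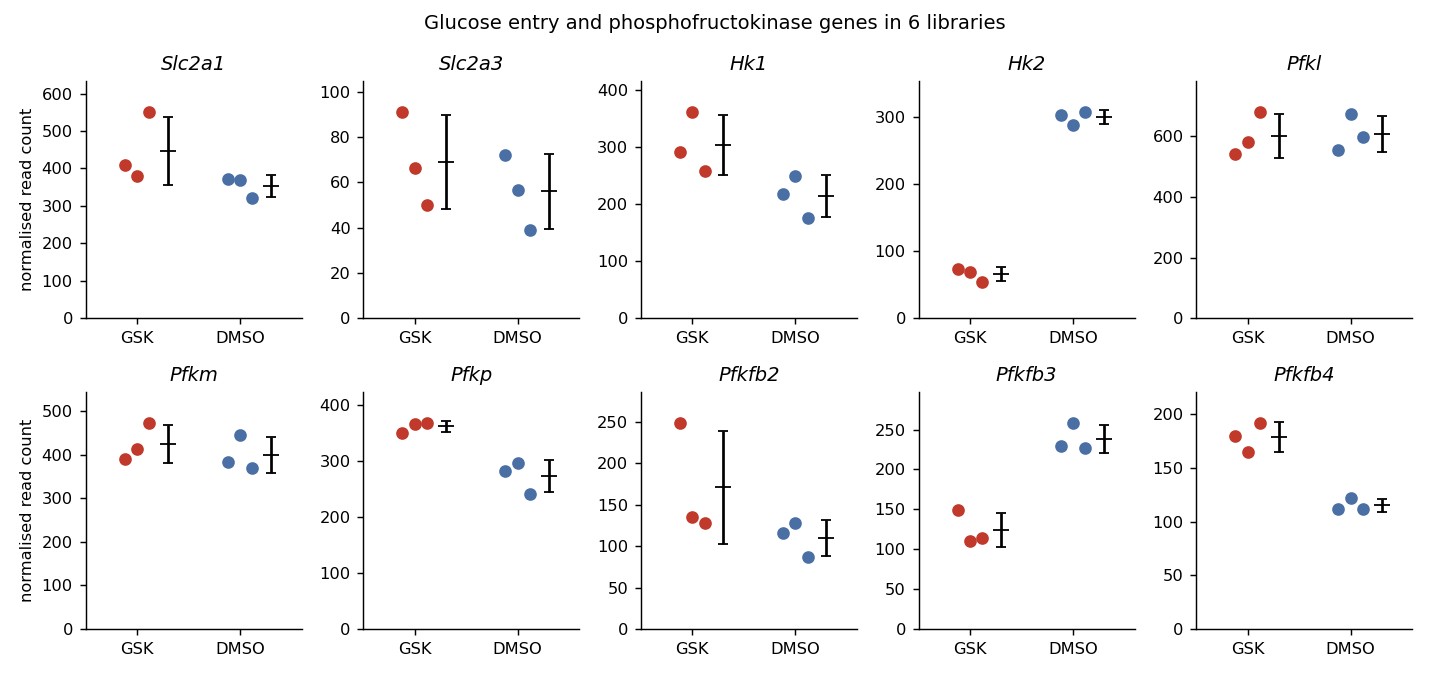
Normalised read count (vertical axis, starting at 0, own scale per gene) of each of the 10 genes in the 3 GSK libraries (red) and the 3 DMSO libraries (blue); black bars give the mean and SD of each group. The groups are far apart for Hk2, separate for Slc2a1, Hk1, Pfkp, Pfkfb2, Pfkfb3 and Pfkfb4, and overlapping for Slc2a3, Pfkl and Pfkm.

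The genes of both carriers missed the threshold. Slc2a1 (chromosome 4, 119108711 to 119137983, plus strand, GRCm38) had 410, 380 and 551 normalised reads in GSK replicates 1 to 3, against 372, 370 and 320 in DMSO replicates 1 to 3. All GSK values lay above all DMSO values, with GSK replicate 3 well above the rest. The means were 447 ± 91.1 in GSK and 354 ± 29.7 in DMSO libraries (SD, n = 3), and the difference was 0.32 ± 0.15 (SE) on the log2 scale (limma adjusted p = 0.104). That value depended on single libraries, since it was 0.16 without GSK replicate 3 (limma adjusted p = 0.443) and 0.37, past the threshold, without GSK replicate 1 (0.0425), the extremes of adjusted p over all alternatives. Slc2a3 (chromosome 6, 122727809 to 122801640, minus strand) had 91.0, 66.2 and 49.9 normalised reads in GSK libraries, against 72.2, 56.7 and 39.0 in DMSO libraries. These ranges overlapped widely, and the difference was 0.30 ± 0.26 (SE) on the log2 scale (limma adjusted p = 0.395). It came to 0.0797 without GSK replicate 1 and to 0.0649 without DMSO replicate 3, but to 0.507 without GSK replicate 3 and to 0.501 without DMSO replicate 1. Slc2a3 is a gene of neurons, and Slc2a1 also serves endothelium and, in some species or stages, red blood cells. The neuron, endothelial and erythroid sums given above therefore stand beside these values, and their part was not tested.

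Hexokinase genes changed in opposite directions, and Hk2 showed the largest change of the 10 genes. Hk2 (chromosome 6, 82725025 to 82774454, minus strand) had 74.0, 68.9 and 54.1 normalised reads in GSK libraries, against 304, 288 and 308 in DMSO libraries. The highest GSK value lay far below the lowest DMSO value. The means were 65.7 ± 10.3 in GSK and 299.7 ± 10.49 in DMSO libraries (SD, n = 3 each), a ratio of 0.219, and the log2 fold change was -2.19 ± 0.17 (SE, limma adjusted p = 5.69e-09). Of the 15073 genes tested, 134 had a lower log2 fold change. These values rest on 51 to 75 reads per GSK library and 286 to 335 per DMSO library. The summed radial glial markers were lower in GSK libraries too, and their part in this difference was not tested. Hk1 (chromosome 10, 62268855 to 62379908, minus strand) had 290, 361 and 258 normalised reads in GSK libraries, against 217, 249 and 176 in DMSO libraries. The groups did not overlap, but the lowest GSK value and the highest DMSO value were close. The means were 303 ± 52.8 in GSK and 214 ± 36.8 in DMSO libraries, or 0.50 ± 0.17 (SE) higher on the log2 scale (limma adjusted p = 0.0224). The call on Hk1 was lost with equal library totals (limma adjusted p = 0.0559) and on leaving out DMSO replicate 1 (0.0525) or 3 (0.128) or GSK replicate 2 (0.162), over a range of 0.00697 to 0.162 for all alternatives. DMSO replicate 3, the lowest for Hk1, was also the lowest DMSO library in the neuron sum (6921, against 11645 and 14095). The same held for the erythroid sum (2466, against 15054 and 21055). GSK replicate 3 was the lowest GSK library for Hk1 but the highest in the neuron sum (24891, against 20502 and 23159). Its erythroid sum was 274610, against 187064 and 277587 in GSK replicates 1 and 2. The part of these cell types in the Hk1 values was not tested.

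Promoter sequences are shown for the pair of hexokinase genes and for the pair of Pfkfb genes that changed in opposite directions, 1 window each, chosen after their values were seen. Each window runs from 250 bases before to 50 after a RefSeq gene start on GRCm38.p6, 5′ to 3′ on the gene's strand. Capitals mark ACGTG, a form of the core letters of hypoxia response elements, read on both strands, where it appears as ACGTG or CACGT. The other form, GCGTG, was neither marked nor counted, and it stands in the printed Hk1 and Pfkfb4 windows. A window without ACGTG may therefore still hold a core. The Hk2 window is chr6:82774405-82774704 (minus strand), the Hk1 window is the second of its pair, chr10:62340372-62340671 (minus), the Pfkfb3 window is the first of its pair, chr2:11553880-11554179 (minus), and the Pfkfb4 window is chr9:108991652-108991951 (plus).
Hk2: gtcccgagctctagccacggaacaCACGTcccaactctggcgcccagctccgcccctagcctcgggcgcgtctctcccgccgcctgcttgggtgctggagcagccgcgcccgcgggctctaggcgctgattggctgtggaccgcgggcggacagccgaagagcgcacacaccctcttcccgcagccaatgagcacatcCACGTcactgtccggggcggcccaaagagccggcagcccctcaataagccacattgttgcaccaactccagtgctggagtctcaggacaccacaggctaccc
Hk1: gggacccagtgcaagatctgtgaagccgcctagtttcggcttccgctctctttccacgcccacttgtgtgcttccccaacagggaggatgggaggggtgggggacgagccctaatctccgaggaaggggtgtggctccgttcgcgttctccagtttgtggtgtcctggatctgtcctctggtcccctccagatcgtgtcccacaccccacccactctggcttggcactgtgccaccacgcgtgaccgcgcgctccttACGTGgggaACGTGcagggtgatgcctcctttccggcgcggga
Pfkfb3: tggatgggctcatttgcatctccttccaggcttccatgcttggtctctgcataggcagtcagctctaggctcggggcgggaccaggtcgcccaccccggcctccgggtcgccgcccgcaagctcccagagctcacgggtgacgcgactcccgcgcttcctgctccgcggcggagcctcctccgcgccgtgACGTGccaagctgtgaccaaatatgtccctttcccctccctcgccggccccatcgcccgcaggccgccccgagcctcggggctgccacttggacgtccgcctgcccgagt
Pfkfb4: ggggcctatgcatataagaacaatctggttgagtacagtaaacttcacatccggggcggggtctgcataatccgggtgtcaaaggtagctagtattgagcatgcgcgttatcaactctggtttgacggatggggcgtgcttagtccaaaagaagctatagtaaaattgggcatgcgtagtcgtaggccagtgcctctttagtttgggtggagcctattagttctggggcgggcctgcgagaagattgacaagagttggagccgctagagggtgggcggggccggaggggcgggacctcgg
The Hk2 window held 2 ACGTG matches, the Hk1 window 2, the Pfkfb3 window 1 and the Pfkfb4 window none. The other Hk1 window held none, and the other Pfkfb3 window held a CACGTG, a palindrome that counts as ACGTG on each strand and is also known as an E-box. RefSeq windows were found for 9 of the 10 genes, all but Slc2a3, with 16 windows in all. ACGTG stood in 9 of these 16 windows, and in 19.6% of the 32851 windows of all genes in the same table. CACGTG stood in 3 of the 16 and in 7.15% of all. ACGTG was thus present in genes that fell (Hk2, Pfkfb3) and in a gene that rose (Hk1), whereas Pfkp and Pfkfb4, which also rose, held none in the single window of each. ACGTG also stood in windows of Slc2a1, Pfkm and Pfkfb2, which were not called, and not in that of Pfkl. Some windows of Pfkm and of Pfkfb2 overlap, so the 16 are not all separate stretches. A match is a description of these letters, not of binding.

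Of the phosphofructokinase subunit genes Pfkp rose, and Pfkl and Pfkm did not pass the test. Pfkl (chromosome 10, 77986947 to 78010083, minus strand) had 541, 580 and 680 normalised reads in GSK libraries, against 553, 673 and 597 in DMSO libraries. The values interleaved, and the difference was -0.0198 ± 0.13 (SE) on the log2 scale (limma adjusted p = 0.926), with a sign that changed between alternatives. Pfkm (chromosome 15, 98092589 to 98132451, plus strand) had 390, 413 and 474 in GSK libraries, against 383, 446 and 370 in DMSO libraries. Its groups overlapped as well, with a difference of 0.09 ± 0.14 (SE) in log2 (limma adjusted p = 0.639). Pfkm shares 10.2% of its exon bases with Gm26513 on the same strand. Gm26513 had 17.5 to 41.0 normalised reads in GSK and 18.6 to 33.5 in DMSO libraries. Pfkp (chromosome 13, 6579768 to 6648777, minus strand) had 349, 367 and 368 normalised reads in GSK libraries, against 283, 296 and 241 in DMSO libraries. Every GSK value lay above every DMSO value, and the GSK libraries were close together. The means were 361 ± 10.46 in GSK and 273 ± 28.7 in DMSO libraries (SD, n = 3 each), or 0.41 ± 0.14 (SE) higher on the log2 scale (limma adjusted p = 0.0270). This call was lost with no filter on low values (limma adjusted p = 0.0596), with equal library totals (0.0625) and without any of 4 libraries, namely DMSO replicates 1 and 3 (0.0519 and 0.126) and GSK replicates 2 and 3 (0.0989 and 0.0527), over a range of 0.0134 to 0.126. Part of the Pfkp sequence is not its own: 5.58% of its exon bases lie in exons of Pitrm1 on the other strand, which had 537 to 691 normalised reads in GSK and 633 to 752 in DMSO libraries.

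Among the bifunctional enzymes Pfkfb3 fell and Pfkfb4 rose. Pfkfb3 (chromosome 2, 11471433 to 11554077, minus strand) had 149, 110 and 114 normalised reads in GSK libraries, against 229, 259 and 227 in DMSO libraries. No GSK library came near a DMSO library. The means were 124 ± 21.5 in GSK and 238 ± 17.7 in DMSO libraries (SD, n = 3 each), and the log2 fold change was -0.94 ± 0.16 (SE, limma adjusted p = 0.000145). Pfkfb4 (chromosome 9, 108991778 to 109032228, plus strand) had 180, 164 and 192 normalised reads in GSK libraries, against 112, 122 and 112 in DMSO libraries. Here the lowest GSK value stood clearly above the highest DMSO value. The means were 179 ± 13.8 in GSK and 115 ± 6.05 in DMSO libraries, or 0.63 ± 0.16 (SE) higher on the log2 scale (limma adjusted p = 0.00430). The calls on Pfkfb3 and Pfkfb4, like that on Hk2, were kept under all 16 alternatives run, with limma, edgeR or DESeq2 adjusted p at most 0.00182 for Pfkfb3, 0.0183 for Pfkfb4 and 1.01e-06 for Hk2.

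Pfkfb2 (chromosome 1, 130689182 to 130729253, minus strand), which encodes the form known from heart, had 249, 135 and 128 normalised reads in GSK libraries, against 116, 128 and 86.4 in DMSO libraries. GSK replicate 1 stood far above the other 5 libraries, and the lowest GSK value exceeded the highest DMSO value only slightly. The difference of 0.58 ± 0.23 (SE) on the log2 scale missed the threshold (limma adjusted p = 0.0586). Without GSK replicate 1 it was 0.28 (limma adjusted p = 0.271), whereas it passed with no filter on low values (0.0190), with DESeq2 (0.0443) and without DMSO replicate 2 (0.0442), GSK replicate 2 (0.0410) or GSK replicate 3 (0.0207), over a range of 0.0190 to 0.271 for the alternatives without a replicate block. Pfkfb2 exons also share 2.12% of their bases with Yod1 on the other strand, which had 588 to 599 normalised reads in GSK and 217 to 301 in DMSO libraries, and 17.4% with the overlapping gene Gm29427. Reads of overlapping genes cannot be told apart in these unstranded libraries, and how such reads were counted is not given in the sources used here. Pfkfb1, the form known from liver and not among the 10 genes, rose to 108 ± 13.4 normalised reads in GSK libraries, against 49.4 ± 7.18 in DMSO libraries (SD, n = 3 each), a log2 fold change of 1.12 (limma adjusted p = 0.000254).

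**Figure D2:**
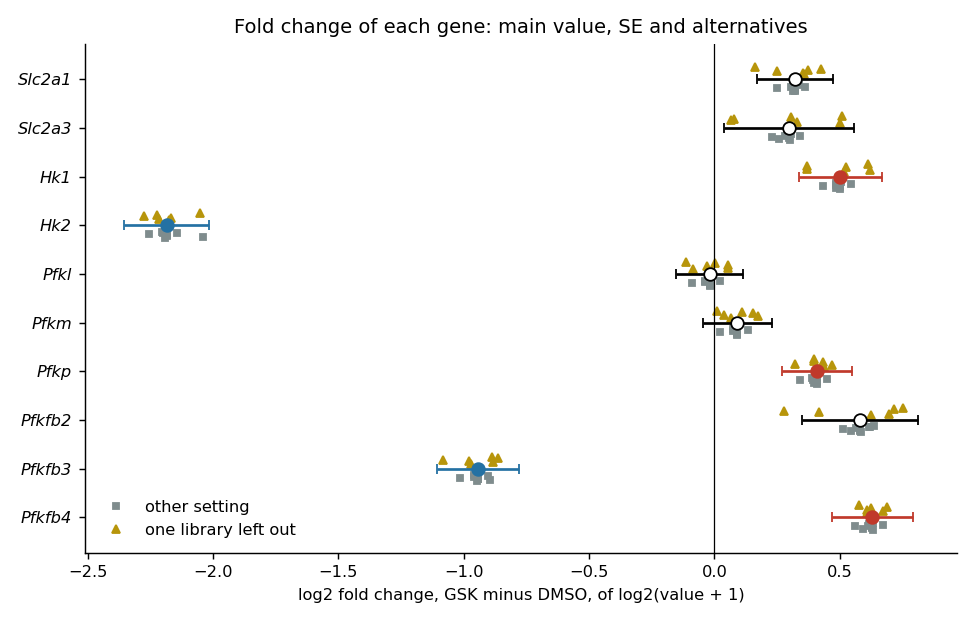
Log2 fold change, GSK minus DMSO, of log2(value + 1) for each gene (horizontal axis). Large circles give the main value with its standard error, filled red where called higher, filled blue where called lower and open where not called; grey squares are other settings and yellow triangles are fits with a library left out. Hk2, at -2.19, and Pfkfb3, at -0.94, stay well below 0 in all settings, and Pfkl scatters around 0.

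The shares of paralogues within a library do not depend on how libraries are scaled. Values were divided by the length of the gene's exons in kb, and each gene was given as a share of its family. Hk2 made up 26.7%, 21.4% and 23.1% of hexokinase transcripts (Hk1 plus Hk2) in GSK libraries, against 66.7%, 62.3% and 71.5% in DMSO libraries. Hk2 was thus the major form in every DMSO library and the minor form in every GSK library (means 23.7% and 66.8%; exact two-sided permutation p = 0.1, the lowest possible for 3 against 3). The length of the longest transcript in place of all exons gave 12.9% to 16.5% in GSK and 47.3% to 57.6% in DMSO libraries, where Hk2 led in 2 of 3 libraries. Pfkfb3 made up 21.7%, 21.8% and 20.8% of the transcripts of Pfkfb2, Pfkfb3 and Pfkfb4 in GSK libraries, against 43.9%, 44.5% and 46.3% in DMSO libraries. It was the leading form of the 3 in each DMSO library and the lowest in each GSK library (exact permutation p = 0.1). Pfkfb4 made up 48.5% ± 7.23 in GSK libraries and 33.6% ± 1.47 in DMSO libraries (SD, n = 3 each), and was the leading form in every GSK library (exact permutation p = 0.1). With the longest transcript as the length, or with no division by length, Pfkfb2 led instead in GSK replicate 1 (40.1% against 37.4% for Pfkfb4 with the longest transcript). Pfkfb2 made up 30.0% ± 6.89 in GSK and 21.5% ± 2.67 in DMSO libraries (exact permutation p = 0.1), with GSK replicate 1 at 37.8%.

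Shares moved less in the other families. Pfkl made up 36.7% ± 0.722 of the phosphofructokinase transcripts in GSK libraries and 39.4% ± 1.55 in DMSO libraries (SD, n = 3 each; exact permutation p = 0.1). Pfkm, at 52.2% ± 0.158 in GSK and 51.8% ± 0.886 in DMSO libraries, was the leading subunit in both groups (exact permutation p = 0.8). With the longest transcript Pfkl led instead, at 45.8% in GSK and 48.9% in DMSO libraries. Pfkp made up 11.1% ± 0.837 in GSK and 8.83% ± 0.726 in DMSO libraries (exact permutation p = 0.1). Slc2a3 was a minor carrier in both groups, with 9.71%, 7.76% and 4.20% of the pair in GSK libraries, against 8.59%, 6.90% and 5.58% in DMSO libraries (exact permutation p = 1).

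**Figure D3:**
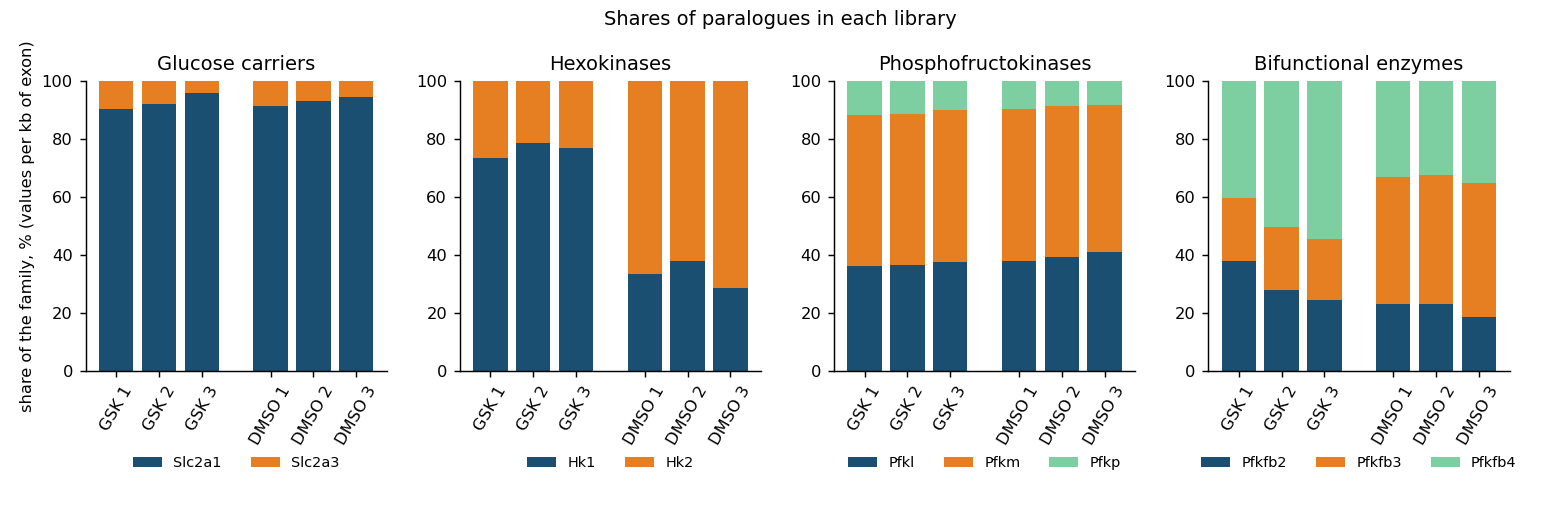
Share of each paralogue (vertical axis, percent of the family's values per kb of exon) in each of the 3 GSK and 3 DMSO libraries, a stacked bar per library. The Hk2 share is 21.4% to 26.7% in GSK and 62.3% to 71.5% in DMSO libraries, and the Pfkfb3 share is 20.8% to 21.8% in GSK and 43.9% to 46.3% in DMSO libraries.

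Whether paralogues responded unequally was asked of their log2 ratio in 6 pairs. The ratio of Hk2 to Hk1 averaged -2.19 in GSK and 0.50 in DMSO libraries, a difference of -2.69. Pfkfb4 over Pfkfb3 averaged 0.53 in GSK and -1.04 in DMSO libraries, a difference of 1.57, and Pfkfb2 over Pfkfb3 differed by 1.52. Pfkp over Pfkl differed by 0.43 and Pfkm over Pfkl by 0.11. In these 5 pairs the GSK and DMSO ratios did not overlap (two-sided exact permutation test, p = 0.1 for each, 0.12 after adjustment over the 6 pairs), and this exact test could not reach 0.05 with 3 libraries against 3. A limma fit of the same ratios passed for 4 of the 6 pairs, with adjusted p over the pairs of at most 0.0257, and not for Pfkm over Pfkl (0.331) or Slc2a3 over Slc2a1. That fit pooled the spread of only these 6 ratios, and Pfkfb3 and Pfkl each stand in more than 1 of them. Its results for the pairs are thus not independent of each other. The ratio of Slc2a3 to Slc2a1 differed by -0.02 (exact permutation p = 1), with a standard error of 0.35, which leaves room for sizeable differences either way.

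The order of levels per kb of exon also shifted. In GSK libraries Pfkm (128 ± 13.0 normalised reads per kb) and Slc2a1 (127 ± 26.0) led and overlapped, followed by Pfkl (89.9 ± 10.8), then Pfkfb4 (36.7 ± 2.84) and Hk1 (35.5 ± 6.19), which overlapped too (SD, n = 3). Below them came Pfkp (27.0), Pfkfb2 (23.6) and Pfkfb3 (16.4), of which Pfkfb2 overlapped its neighbours, and at the bottom Hk2 (9.07 to 12.4) and Slc2a3 (6.88 to 12.6), which did not separate. In DMSO libraries Pfkm (120 ± 12.1 per kb), Slc2a1 (101 ± 8.46) and Pfkl (91.0 ± 9.05) led, the ranges of Slc2a1 and Pfkl overlapping, and Hk2 came next at 50.2 ± 1.76, clear of Pfkfb3 at 31.5 ± 2.34. Hk1 (25.1) and Pfkfb4 (23.6) overlapped there, followed by Pfkp (20.4), Pfkfb2 (15.2) and Slc2a3 (7.73). Carrier transcripts summed over both genes were 129, 118 and 164 per kb in GSK libraries, against 116, 113 and 96.6 in DMSO libraries, all GSK values being the higher (exact permutation p = 0.1). Summed over the family, hexokinase transcripts per kb were 46.4, 53.9 and 39.3 in GSK libraries, against 76.3, 77.4 and 72.1 in DMSO libraries, with no overlap (exact permutation p = 0.1). With the longest transcript as the length these sums touched (70.1 to 96.9 in GSK and 96.9 to 110 in DMSO libraries, exact permutation p = 0.2). The phosphofructokinase sum was 244 ± 24.4 per kb in GSK and 231 ± 21.9 in DMSO libraries, and the Pfkfb sum 76.7 ± 12.6 in GSK and 70.3 ± 6.12 in DMSO libraries, each within the spread of the replicates (exact permutation p = 0.5 and 0.6).

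Around the entry steps, 71 other genes in 6 lists gave 57 tested, 11 higher and 9 lower in GSK libraries, with a median log2 fold change of 0.01. These counts are near the background shares of 17.0% and 19.1%, and 7 were higher without DMSO replicate 1 or with equal library totals. Of 7 other carriers tested 3 rose and 1 fell. Slc2a12, which encodes a further sugar carrier, rose to 436 ± 44.6 normalised reads in GSK libraries, against 241 ± 23.8 in DMSO libraries, or 0.85 higher on the log2 scale (limma adjusted p = 9.82e-05). Slc2a6 rose by 1.09 on the log2 scale and Slc2a8 by 0.43, and Slc2a10 fell, with a log2 fold change of -0.83. The Slc2a8 call (limma adjusted p = 0.0480) was lost in 9 of 16 alternatives, which gave adjusted p of 0.0271 to 0.202 and included TMM scaling, edgeR and DESeq2. Slc2a10 missed the threshold in limma fits that left out DMSO replicate 1 (0.106) or 3 (0.0984) or GSK replicate 2 (0.118). Among 4 tested genes of other hexokinases and the liver form Pfkfb1, Hk3 rose with a log2 fold change of 1.44 at only 17.5 ± 9.29 normalised reads in GSK and 5.99 ± 4.55 in DMSO libraries (limma adjusted p = 0.0484), and its groups overlapped. That call was lost in 9 of 15 alternatives, among them TMM scaling and DESeq2, with fold changes of 1.06 to 1.94 in log2 and adjusted p of up to 0.223 when single libraries were left out. HK3 is known from white blood cells, and 5 of 9 microglia and macrophage markers rose beside it. GSK replicate 3 had the lowest Hk3 value of the GSK libraries (7.43) but their highest sum of these markers (1488). DMSO replicate 3 had the highest Hk3 value of the DMSO libraries (11.2) and also their highest sum (348). The part of these cells in the Hk3 values was not tested. Of the 3 opposing enzymes tested Slc37a4, the carrier of glucose 6-phosphate into the endoplasmic reticulum, rose by 0.79 on the log2 scale, and Tigar, whose product breaks down fructose 2,6-bisphosphate, fell with one of -0.87.

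Of 14 genes in branches from the hexose phosphates 2 rose and 1 fell. G6pdx, which encodes the first enzyme of the pentose phosphate pathway, and Gnpda1 rose by 0.41 and 0.59 in log2, and Pgm1, a phosphoglucomutase gene, fell with one of -0.37. These were weak calls, lost in 5 of 16 alternatives for G6pdx, 4 of 15 for Gnpda1 and 7 of 16 for Pgm1, and their adjusted p reached 0.130, 0.108 and 0.162 in limma fits with a library left out. Gpi1, whose product links the hexokinase and phosphofructokinase steps, missed the threshold at -0.16 on the log2 scale (limma adjusted p = 0.388). Further down the pathway, 5 of 12 tested genes of lower glycolysis fell and 3 rose. Those with the smallest p were Pkm, Pgam1, Eno1 and Gapdh, which encode pyruvate kinase, phosphoglycerate mutase, enolase and glyceraldehyde 3-phosphate dehydrogenase, with log2 fold changes of -0.88, -0.74, -0.83 and -0.72. Gapdh, Pgam1 and Eno1 have near-identical pseudogene copies, so their counts are less certain. The 3 genes of lower glycolysis that rose had means of at most 96.5 normalised reads in GSK libraries, against at least 932 for the 5 that fell. Levels summed over this list were 17846 to 23796 in GSK and 30741 to 33592 in DMSO libraries. Ldha, which encodes a subunit of the inhibited enzyme, had a log2 fold change of -0.78 (limma adjusted p = 0.000424), whereas Ldhb, at -0.18, missed the threshold. Among 17 tested regulators 1 fell and none rose. That gene was Mycn, a transcription factor gene of dividing neural progenitors, with a log2 fold change of -2.07 and values of 229 ± 31.1 in GSK and 965 ± 124 in DMSO libraries (SD, n = 3 each; limma adjusted p = 1.33e-09). Hif1a had 1787 normalised reads on average in GSK and 1658 in DMSO libraries, a difference of 0.11 ± 0.13 (SE) in log2 (limma adjusted p = 0.564).

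**Figure D4:**
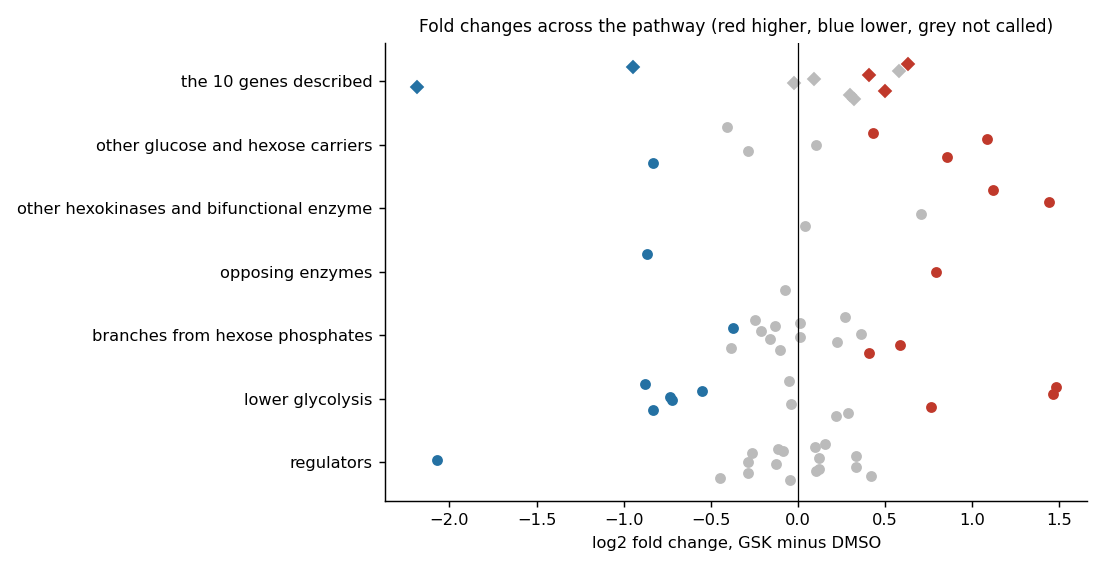
Log2 fold change, GSK minus DMSO (horizontal axis), of the 10 genes described (diamonds) and of tested genes in 6 lists of the same pathway (circles), red where called higher, blue where called lower and grey where not called. Hk2 (-2.19) and Mycn (-2.07) lie farthest to the left, and the lower glycolysis list holds 5 falls and 3 rises.

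The genes whose levels ran most closely with the leading gene of each family were taken from the 9075 tested protein coding genes whose mean reached 100, by Pearson correlation of log2 values over the 6 libraries. These correlations describe a set of libraries that differ by treatment. The leading gene was the one with the highest mean per kb of exon over all 6 libraries. Hk2 led Hk1 there by little, at 30.6 against 30.3, and trailed it with either other length, and Pfkfb4 led at 30.1 but trailed Pfkfb3 in values not divided by length. For Hk2 the 3 genes were Nusap1, a spindle gene (r = 0.9998), Slc1a3, a glial glutamate carrier gene and a listed radial glial marker (r = 0.9996), and Irs1, of insulin signalling (r = 0.9993). Slc1a3 had 75.1, 66.2 and 45.6 normalised reads in GSK libraries, against 583, 570 and 563 in DMSO libraries. For Pfkfb4 they were Mblac2 (r = 0.998), Creld1 (0.995) and Itfg1 (0.992). For Slc2a1 they were Smug1 (r = 0.983), Chmp3 (0.980) and C1qtnf12 (0.976), and for Pfkm they were Zdhhc13 (0.978), Trappc5 (0.971) and Nudt19 (0.959). Those of Slc2a1 and Pfkm were not called, and those of Hk2 and Pfkfb4 were, as their choice by correlation with these genes makes likely.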

How the data were processed

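The samples were 6 bulk Smart-seq2 libraries, 3 GSK and 3 DMSO. Per the file headers and the values, the authors deposited a signal of normalised read counts, that is gene reads divided by a factor per library. The submitters' processing notes name STAR, DESeq, GRCm38 and mm10 but give no versions. For the read counter, annotation release and strand setting the entry is: not given in the sources used here. The table held 118098 rows for 32285 genes, since each transcript of a gene repeats its value, and repeats were dropped. Dividing each library by its smallest nonzero value gave whole numbers within 0.01 for 100% of values, taken as reads. Coordinates and lengths came from GENCODE vM21 (GRCm38), with length as the union of exons, and promoters from RefSeq (GRCm38.p6).

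Groups were compared with limma (version 3.58.1, R 4.3.3, trend and robust options) on log2(value + 1) of 15073 genes with a mean of at least 10, without covariates. P-values were adjusted by the Benjamini-Hochberg method, threshold 0.05. This scale understates the change of low genes. Shares and ratios were tested by exact permutation of the libraries, two-sided. No 50-base stretch of a transcript was shared between the 10 genes. Alternatives were other pseudocounts, filters and scalings, count models on the recovered reads (edgeR 4.0.16, which called 2529 genes higher and 3007 lower, and DESeq2 1.42.0), other lengths, a replicate block and each library left out. The 10 genes and all lists were chosen with earlier results of these data known. Besides the 10, the text names from each pathway list up to 4 called genes by smallest p, from each marker list its most abundant gene, and for the leading gene of each family the 3 genes with the highest correlation. Gpi1, Hif1a and Cldn5 were named after their values were seen.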

Additional observations from a re-analysis of the deposited data

How the results depend on the processing

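Of 441 single-gene values under the alternatives, 383 kept their direction and side of the threshold, 47 fell short of it, 7 newly passed and 4 changed sign. Those 4 were of Pfkl, which was not called, at 0.0219 with totals counted without erythroid and ribosomal-RNA-overlapping genes (an alternative chosen after seeing the data), and at 0.00167 to 0.0559 without DMSO replicate 2, GSK replicate 1 or GSK replicate 2, over a range of -0.113 to 0.0559 with each library left out. The cause of these changes was not tested.

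Of the 10 genes, 3 were higher and 2 lower in the reported fit. With equal library totals 1 was higher, and with each library left out 1 to 4 were higher, 2 being lower throughout. Other pathway genes higher numbered 11 as reported, 4 with a mean of at least 100, where fewer genes are tested, 7 with equal library totals and 7 to 11 with a library left out. Equal totals moved the median of all genes to -0.06 and gave 2052 genes higher and 3264 lower, against 2563 and 2883 as reported. Totals without erythroid and ribosomal-RNA-overlapping genes gave 2884 higher and 2597 lower. These dominant genes took 2.29 to 2.98% (erythroid) and 23.2 to 26.1% (ribosomal-RNA-overlapping) of reads in GSK and 0.0290 to 0.244% and 20.2 to 21.6% in DMSO libraries.

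Same-numbered libraries deviated together with correlations of -0.0236 to 0.0529, so the numbers were not taken to pair them. The replicate block called 4 of the 10 genes higher and 2 lower, Pfkfb2 being the added one (limma adjusted p = 0.0154), and 2662 genes higher and 2980 lower in all. Not every library correlated best with its own number, since GSK replicate 1 did so with DMSO replicate 2 (0.0720).

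Differences in share, in percentage points, moved by more than the replicate SD for Hk2 with the longest transcript (-37.9, against -43.1), and with no division by length for Pfkl (-4.28, against -2.66), Pfkm (-0.524, against 0.400), Pfkp (4.81, against 2.26) and Pfkfb3 (-25.2, against -23.5). With either other length the leading gene was the same in 3 of 4 families in each group, Pfkl replacing Pfkm. Tested with limma instead of permutation, the ratios kept their size and passed for Hk2 over Hk1 (-2.69), Pfkp over Pfkl (0.43), Pfkfb2 over Pfkfb3 (1.52) and Pfkfb4 over Pfkfb3 (1.57), with or without the replicate block. These fits used only the few ratios listed, some of which share a gene. Reads per gene limit the precision, most for Slc2a3, with 42 to 80 reads per library.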
